A study of Mus musculus with 855 samples.

Results

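At postnatal day 4 (P4), single starburst amacrine cells that carried Fezf1 RNA were compared with those that carried Rnd3 RNA. A cell counted as a Fezf1 cell if it had a fragment of Fezf1 and none of Rnd3, and as a Rnd3 cell if the reverse held. Set a held 94 P4 cells and set b held 95. Of these, 25 and 22 were Fezf1 cells (47 in all) and 57 and 56 were Rnd3 cells. The 160 cells of both groups are 84.7% of the P4 cells and 18.7% of all cells of the series. A further 19 cells had both genes and 10 had neither. The groups were thus chosen by the readout itself, so the levels of Fezf1 and Rnd3 describe the choice and are no result, and no test was made between the groups.

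The study concerned how Sema6A and its receptor PlexA2 shape the dendrites of starburst cells. Its single-cell libraries served to check the expression of Sema6a in starburst cells that had been seen in transgenic animals. All P4 cells came from Chat Cre/+ mice of the C57BL/6 strain that also carried the ROSA-LSL-TD-Tomato reporter, so Cre from the Chat locus turned on tdTomato in cholinergic cells, and every cell of both groups had this genotype. Red cells were sorted one by one from dissociated retinas at P4, and Smart-seq2 libraries of polyadenylated RNA were made from each. The labels do not tie the sets to separate mice, so the spread between the sets may be technical.

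Starburst amacrine cells are the only cholinergic neurons of the retina, and they also release GABA. OFF starburst cells lie in the inner nuclear layer and ON starburst cells lie displaced in the ganglion cell layer, and each sends its dendrites into its own thin stratum of the inner plexiform layer, where they inhibit direction-selective ganglion cells. Fezf1 is a zinc finger transcriptional repressor known from ON starburst cells, and Rnd3 is an atypical small GTPase that loosens the actin cytoskeleton and is known from OFF starburst cells.

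The limit of 1 fragment, with an allowance for rounding, left a clear gap for Fezf1. The lowest cell above it held 7 Fezf1 fragments, the median Fezf1 cell held 44, and all cells under it held 0. For Rnd3 the lowest cell above the limit held 1 fragment, and the 57 cells under it held 0. Within the Rnd3 cells themselves the range was 31 to 1480 fragments with a median of 470. The Rnd3 counts under 31 all lay in cells that also had Fezf1.

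Both groups carried starburst cell markers. Of 6 examined, 5 passed the filter on low values and none was called. Chat, Slc18a3, Isl1 and Megf10 were among those that passed, so either Slc5a7 or Sox2 did not pass. Slc18a3, the vesicular acetylcholine transporter, was present in every cell of both groups, and so was Isl1. Chat was present in 46 of 47 Fezf1 cells and 97.3% of Rnd3 cells. Markers of other retinal cells were mixed. Pou4f2, Pou4f3 and Slc17a6 of ganglion cells, Vsx1, Grm6 and Cabp5 of bipolar cells, and Gnat1, Pde6b and Cnga1 of rods had no fragment in any of the 160 cells. The level summed over the bipolar markers had a median of 0 FPKM in both groups and a highest cell of 67.1 FPKM among Fezf1 cells and 1250 FPKM among Rnd3 cells, the latter from Otx2, which was present in 4.26% and 5.31% of cells. Rod markers, among them Nr2e3 and Sag, also had a median of 0 FPKM in both groups and summed to at most 67.5 and 115.965 FPKM. Kdr, an endothelial receptor, was present in 97.9% of Fezf1 cells and 95.6% of Rnd3 cells at means of 95.7 and 82.5 FPKM, and was not called, while the endothelial markers Cdh5, Cldn5 and Pecam1 had no fragment in either group. The part of other cells' RNA in the differences below was not tested. The 160 cells held between 137884 and 485643 fragments. The groups had like depth, with a median of 225031 fragments and 5904 genes in Fezf1 cells and of 229395 fragments and 5640 genes in Rnd3 cells. The libraries of set b were deeper than those of set a in both groups (medians of 277796 and 213741 fragments in Fezf1 cells, and of 281853 and 205794 in Rnd3 cells). The labels mark 1 of the Fezf1 cells and 2 of the Rnd3 cells, all in set b, as filtered out by the study, and they were kept here. No 2 P4 cells had identical values.

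Gene levels are FPKM, fragments per length of transcript on a scale common to the cells, so they can be compared between genes. For each set the log2 of (mean FPKM of Fezf1 cells + 1) over (mean FPKM of Rnd3 cells + 1) was taken, a value above 0 meaning higher in Fezf1 cells, and a gene was called if this log2 ratio was past 1 in the same direction in both sets. Of 10200 genes tested, 290 were called, 1.58% higher in Fezf1 cells and 1.26% higher in Rnd3 cells. Those higher in Fezf1 cells split into 66 genes present in at least 50% of the Fezf1 cells and 95 genes present in fewer, and those higher in Rnd3 cells into 32 and 97 by their share of Rnd3 cells. These splits are not on a par. A tested gene had a fragment in at least 10% of all P4 cells, so a gene confined to the smaller Fezf1 group needed a larger share of it. The sets differed a good deal for single genes. At least 2-fold higher in Fezf1 cells in set a were 6.26% of the tested genes, and 25.2% of these were so in set b while 46 genes were at least 2-fold lower there. At least 2-fold higher in Rnd3 cells in set a were 5.03%, of which 25.1% were so in set b and 45 genes went at least 2-fold the other way. The median log2 ratio over all tested genes was 0.11 and not 0. With fragments scaled to the cell's total in place of FPKM it was 0.01, and the share of calls that were higher in Fezf1 cells turned from 55.5% to 43.1%. With FPKM scaled to the same sum in every cell that share was 44.4%. The 12 leading genes on either side were called under all 3 scales.

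**Figure D1:**
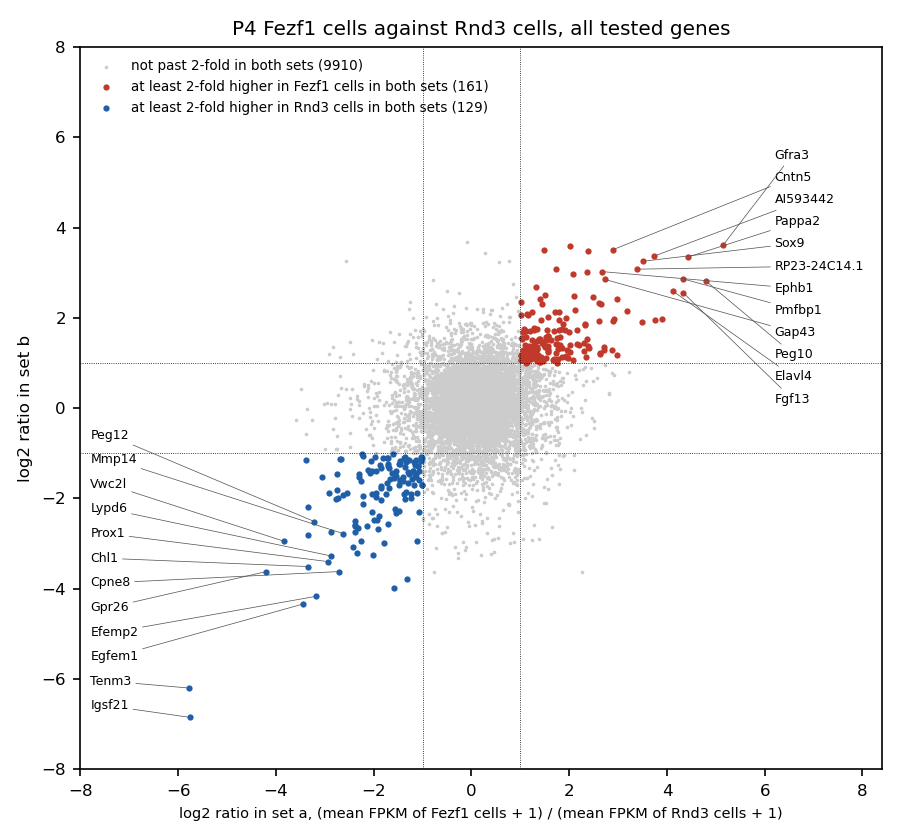
Log2 ratio of every tested gene in set a (horizontal axis) and in set b (vertical axis), where the ratio is (mean FPKM of Fezf1 cells + 1) over (mean FPKM of Rnd3 cells + 1), with the called genes higher in Fezf1 cells in red, those higher in Rnd3 cells in blue and dotted lines at 2-fold. Tenm3 and Igsf21 lie apart from all other genes in the lower left, while the red genes reach 5.14 in set a and stay under 4 in set b.

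The largest differences at P4 lay on the side of the Rnd3 cells, and those of Tenm3 and Igsf21 came close to all or none. Tenm3 codes for teneurin-3, a large transmembrane protein that binds latrophilins across the synapse and matches neurites to their partners. It was present in 57 of 57 and 55 of 56 Rnd3 cells of sets a and b (99.1%, exact 95% interval 95.2 to 99.98%) and in 1 of 47 Fezf1 cells (2.13%, interval 0.0539 to 11.3%). These intervals, and those below, are Clopper-Pearson intervals and cover counting error only. Rnd3 cells had a mean of 103.1 FPKM in set a, with a median of 93.04 and a highest cell of 280.9, and a mean of 72.7 FPKM in set b, with a median of 63.4 and a highest cell of 225.6. In Fezf1 cells the mean was 0.896 FPKM in set a, all of it from 1 cell at 22.4 FPKM, and Tenm3 was listed at 0 in set b. The groups overlapped in few cells, as 90.3% of Rnd3 cells exceeded the highest Fezf1 cell, and the log2 ratios were -5.78 in set a and -6.20 in set b. Tenm3 lies on chromosome 8 (48227682 to 48843951, minus strand, GRCm38).

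Igsf21, an immunoglobulin protein of synapses that binds neurexins, followed the same pattern. It was present in 49 of 57 and 47 of 56 Rnd3 cells of sets a and b (84.96%, interval 77.01 to 90.98%) and in 1 of 47 Fezf1 cells (2.13%). Rnd3 cells averaged 84.7 FPKM in set a and 114.7 FPKM in set b, with highest cells of 274.9 and 562.6. The 1 Fezf1 cell that had it, in set a, held 14.5 FPKM. The log2 ratios were -5.76 and -6.85. Igsf21 lies on chromosome 4 (140026846 to 140246784, minus strand).

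Gpr26, an orphan G protein-coupled receptor on chromosome 7 (131966460 to 131994405, plus strand), was not seen in any Fezf1 cell. That is 0 of 47 cells, which allows a share of up to 6.38% (3 of 47 cells, a floor set apart from the intervals), against 51 of 57 and 42 of 56 Rnd3 cells of sets a and b (82.3%, interval 74 to 88.8%). Its mean in Rnd3 cells was 17.5 FPKM in set a and 11.4 FPKM in set b, so it separated the groups at a far lower level than Tenm3 did. Such a gene has no fold here, as its log2 ratios of -4.21 and -3.63 (sets a and b) rest on the pseudocount.

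Sparser genes had the same one-sided shape. Chl1 (close homolog of L1, an adhesion molecule), Efemp2 (fibulin-4, of elastic fibres), Vwc2l (a secreted protein with von Willebrand C domains), Prox1 (a homeodomain factor known from horizontal and AII amacrine cells) and Lypd6 (a membrane-anchored Ly6 protein) were all listed at 0 in the 47 Fezf1 cells. They were present in 26.5%, 28.3%, 29.2%, 33.6% and 15.9% of Rnd3 cells, respectively. Prox1 thus marked 20 of 57 and 18 of 56 Rnd3 cells of sets a and b (interval of the share 25.01 to 43.1%), with means of 6.69 and 9.57 FPKM over all Rnd3 cells of a set. Absence from single cells need not be absence of the RNA at this depth. Of the genes called higher in Rnd3 cells, 11 had no fragment in any Fezf1 cell. None of those called higher in Fezf1 cells was missing from all Rnd3 cells, which were more numerous. The filter also asks for a fragment in at least 10% of all P4 cells. A gene confined to the smaller Fezf1 group meets that less easily, so this contrast has no weight as a result.

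The other leading genes of Rnd3 cells were Egfem1, with EGF-like and EMI domains, Cpne8, a copine that binds membranes with calcium, Mmp14, a membrane-bound matrix protease, and Peg12, an imprinted gene. Cpne8 was present in 33 of 57 and 26 of 56 Rnd3 cells of sets a and b and in 3 of 47 Fezf1 cells, with set means of 26.4 and 15.9 FPKM against 3.20 and 0.370 FPKM. Egfem1 was present in 25.7% of Rnd3 cells and 4 Fezf1 cells, and its mean over all cells of the group was 25.3 times as high in Rnd3 cells. Mmp14 was present in 25.7% of Rnd3 cells and 3 Fezf1 cells, and Peg12 in 31.9% and 2 cells. For all 4 genes the median Fezf1 cell was at 0.

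On the side of the Fezf1 cells, Cntn5 was the leading gene with the highest level. It codes for contactin-5, a lipid-anchored immunoglobulin adhesion molecule that helps neurites find partners. Cntn5 was present in all 47 Fezf1 cells and in 28 of 57 and 22 of 56 Rnd3 cells of sets a and b (44.2%, interval 34.9 to 53.9%). Fezf1 cells had means of 244.95 and 214.85 FPKM, with medians of 219.4 and 149.4. Rnd3 cells had means of 31.9 and 17.9 FPKM with medians of 0 in both sets, and highest cells of 196.4 and 205.4. So 24 of 47 Fezf1 cells exceeded every Rnd3 cell, and the mean was 9.25-fold higher in Fezf1 cells (log2 ratios of 2.90 and 3.51). Unlike Tenm3 in the reverse direction, Cntn5 was graded between the groups and not all or none. RP23-24C14.1, which GENCODE vM21 lists as an antisense transcript on chromosome 9 (10904345 to 10907818, plus strand), starts inside Cntn5 (9660891 to 10904775, minus strand), and the deposited annotation gives both the same locus. It was present in 43 of 47 Fezf1 cells and 24.8% of Rnd3 cells, with log2 ratios of 3.38 and 3.08. Smart-seq2 does not mark strand, so reads of the stretch that both share cannot be told apart and its value is uncertain.

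Gfra3 had the largest ratio of this side in set a. It codes for the GDNF family receptor that binds artemin and signals with Ret. Gfra3 was present in 28 of 47 Fezf1 cells (59.6%, interval 44.3 to 73.6%) and in 1 Rnd3 cell of either set (1.77%, interval 0.215 to 6.25%). Fezf1 cells had means of 71.95 and 40.1 FPKM, with medians of 40.8 and 34.1. Rnd3 cells had means of 1.06 and 2.38 FPKM, each from a single cell, of 60.5 and 133.3 FPKM. The related receptor Gfra1 and the shared receptor Ret, looked up after these values were seen, were not called and leaned to the Rnd3 cells. Gfra1 had means of 49.3 and 57.5 FPKM in Fezf1 cells against 97.01 and 107.6 in Rnd3 cells, and its log2 ratios of -0.96 and -0.89 fell just short of 2-fold. Ret had log2 ratios of -0.63 and -0.50.

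Sox9, a transcription factor best known from retinal progenitors and Muller glia, was present in 32 of 47 Fezf1 cells (68.1%, interval 52.9 to 80.9%) and in 5 of 57 and 4 of 56 Rnd3 cells of sets a and b (7.96%, interval 3.71 to 14.6%). Its means were 28.7 and 36.6 FPKM in Fezf1 cells of sets a and b and 1.61 and 2.95 FPKM in Rnd3 cells, 14.2-fold apart over all cells. Among the 7 Muller glia markers examined, of which 3 passed the filter, 1 was higher in Fezf1 cells (Sox9) and 1 was higher in Rnd3 cells (Apoe, a lipid carrier, present in 2 Fezf1 cells and 26.5% of Rnd3 cells). The level summed over these 7 markers ran from 0 to 197.1 FPKM with a median of 60.2 in Fezf1 cells, and from 0 to 465.02 FPKM with a median of 49.2 in Rnd3 cells, so the groups overlapped. The part of other cells' RNA in the Sox9 and Apoe differences was not tested.

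The remaining leading genes of Fezf1 cells were AI593442, a coding gene without a settled role, Pmfbp1, known from sperm, Pappa2, a protease of insulin-like growth factor binding proteins, Peg10, an imprinted gene derived from a retroelement, Gap43, a growth cone protein, Ephb1, a receptor for ephrin-B ligands, Elavl4, a neuronal RNA-binding protein, and Fgf13, an intracellular partner of sodium channels. AI593442 was present in 30 of 47 Fezf1 cells and 6.19% of Rnd3 cells, and Pmfbp1 in 30 of 47 and 5.31%. Elavl4 had set means of 81.3 and 77.6 FPKM in Fezf1 cells and 3.70 and 12.1 FPKM in Rnd3 cells, and it was present in 25 Fezf1 cells and 9.73% of Rnd3 cells. Pappa2, Peg10, Gap43, Ephb1 and Fgf13 were sparse, present in 13, 17, 10, 14 and 12 of 47 Fezf1 cells and in 2, 4, 2, 4 and 6 Rnd3 cells. Their median cell was at 0 in both groups. For Peg10 the set means differed much, at 27.3 and 7.42 FPKM in Fezf1 cells.

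**Figure D2:**
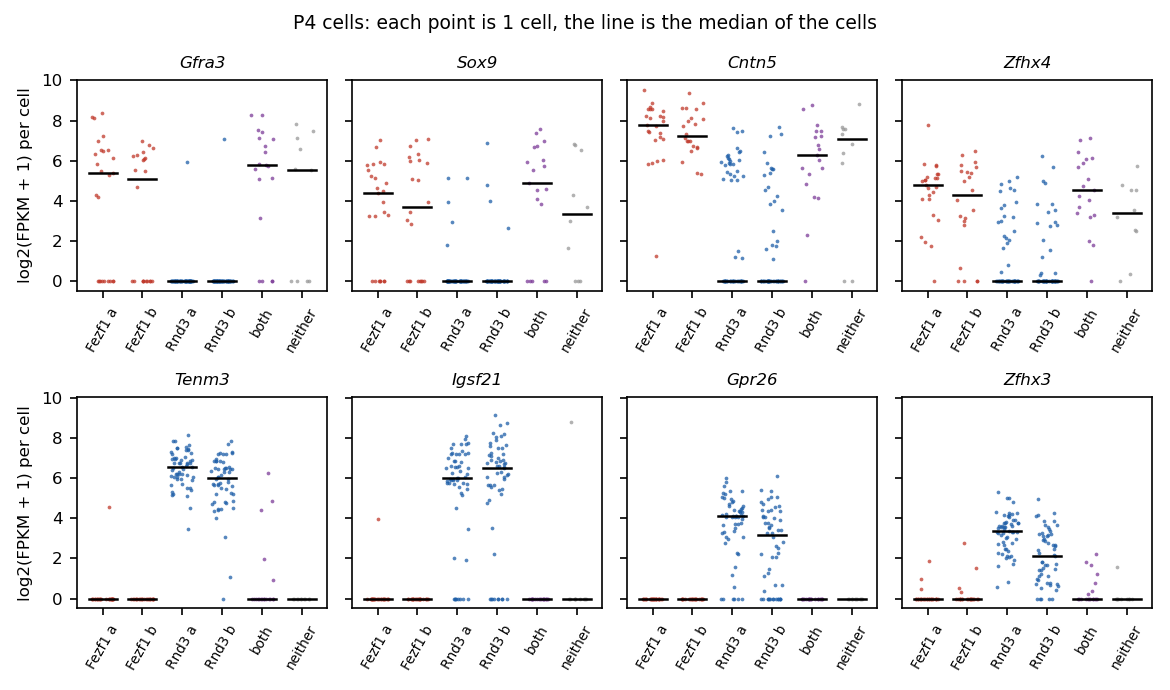
Level of 8 genes in every P4 cell as log2(FPKM + 1), by group and set, with cells that had both or neither of Fezf1 and Rnd3 at the right of each panel and a line at the median of the cells. Tenm3, Igsf21 and Gpr26 are at 0 in nearly all Fezf1 cells, whereas Cntn5 and Zfhx4 are graded, and the cells with both genes lie mostly with the Fezf1 cells, although 5 of the 19 have Tenm3, the highest at 75.7 FPKM.

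Detection of the 24 leading genes changed little with depth. With each cell thinned to 150000 fragments, which left out 1 Fezf1 cell and 4 Rnd3 cells, the share of cells with a fragment of a leading gene shifted by -5.72 to 1.99 percentage points.

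Counted cell by cell, every one of the 47 Fezf1 cells had more of the 12 leading Fezf1-side genes (3 to 10, median 6) than of the 12 leading Rnd3-side genes (0 to 2, median 0). More of the Rnd3 side was present in 93.8% of Rnd3 cells, with a median of 5 against 1. These counts restate the choice of the genes and have no weight as support. The 19 cells with both Fezf1 and Rnd3 had no part in the ratios that ranked the genes. The filter, however, counted all P4 cells, also those with both or neither gene. A sparse gene such as Gap43 could pass it only through fragments in these cells. Their counts are thus a description only. All 19 had more of the Fezf1-side genes, 4 to 11 with a median of 7, and 0 to 2 of the Rnd3-side genes. Cntn5 and RP23-24C14.1, which overlap, are both among the Fezf1-side genes, so reads of their shared stretch may count for both. This limit holds for all counts of these genes. Igsf21, Gpr26, Chl1 and Prox1 were listed at 0 in all 19, and Tenm3 was present in 5 of them with a mean of 6.72 FPKM. Their Rnd3 was low, from 1 to 120 fragments with a median of 25 against 470 in Rnd3 cells, and their Fezf1 had a median of 74 fragments and a lowest cell of 16.

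The 10 cells with neither gene also went with the Fezf1 side, with the same limit from the filter. In 9 of them more Fezf1-side than Rnd3-side genes were present, and the last had 1 of each. That last cell held 71211 fragments and 1793 genes, the lowest of all P4 cells, and the labels mark it as filtered out. Tenm3, Gpr26, Chl1 and Prox1 were listed at 0 in all 10, but that last cell had Igsf21, at 447.95 FPKM. Gfra3 was present in 6 of 10 and Sox9 in 7 of 10.

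A pair of Rnd3 cells of set b stood with the Fezf1 cells. One had 6 Fezf1-side genes and no Rnd3-side gene, with 31 Rnd3 fragments, the fewest of all Rnd3 cells. The other had 5 and 2, with 70 Rnd3 fragments. Another 5 Rnd3 cells had as many genes of one side as of the other.

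**Figure D3:**
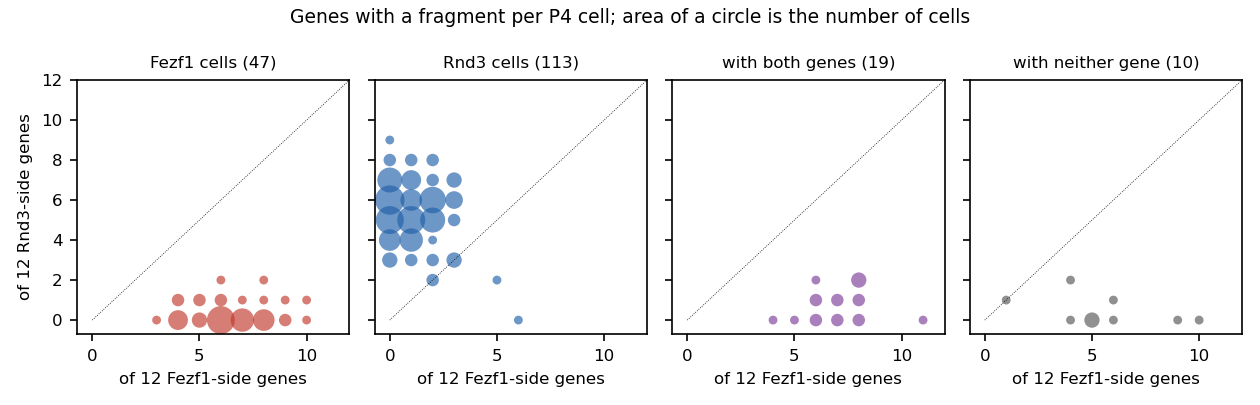
Number of the 12 leading Fezf1-side genes (horizontal axis) and of the 12 leading Rnd3-side genes (vertical axis) with a fragment in each P4 cell, in 4 panels by group, with circle areas in proportion to the number of cells and a dotted line at equal numbers. The 19 cells with both genes and 9 of the 10 cells with neither lie under the line, where all 47 Fezf1 cells lie.

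Genes that define the starburst cell and those of the Sema6A pathway differed little between the groups. Sema6a, the transmembrane semaphorin, was present in 46 of 47 Fezf1 cells and 93.8% of Rnd3 cells. Its means were 147.3 and 94.8 FPKM in Fezf1 cells of sets a and b and 156.6 and 113.3 FPKM in Rnd3 cells, so it differed more between the sets than between the groups (log2 ratios of -0.09 and -0.25). Plxna2, its receptor, was present in every cell of both groups, with means of 116.4 and 86.4 FPKM against 102.3 and 86.2 FPKM. Megf10, a repulsive surface receptor that spaces starburst cells, had means of 223.2 and 207.4 FPKM in Fezf1 cells and 294.5 and 234.1 FPKM in Rnd3 cells. Gad1, the main GABA-making enzyme, stood at 607.6 and 556.6 against 472.1 and 479.7 FPKM. None of these 4 was called.

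Chat, the enzyme that makes acetylcholine, leaned opposite ways in the sets, with log2 ratios of -0.14 and 0.72, and Slc18a3 had 0.01 and 0.56. Slc18a3 lies within the Chat gene on the same strand (chromosome 14, 32462438 to 32464850 within 32408203 to 32465989), so fragments of the pair may have been split between them. Synpr, which codes for the vesicle protein synaptoporin, was the only gene called in a list of 9 genes of starburst cells. It was present in 35 of 47 Fezf1 cells and 31.9% of Rnd3 cells, with means of 188.75 and 178.6 FPKM against 16.01 and 46.96 FPKM. Glra4, a glycine receptor subunit, was listed at 0 in all cells of both groups, and P2rx2, an ATP-gated channel, was present in 2 Fezf1 cells only.

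**Figure D4:**
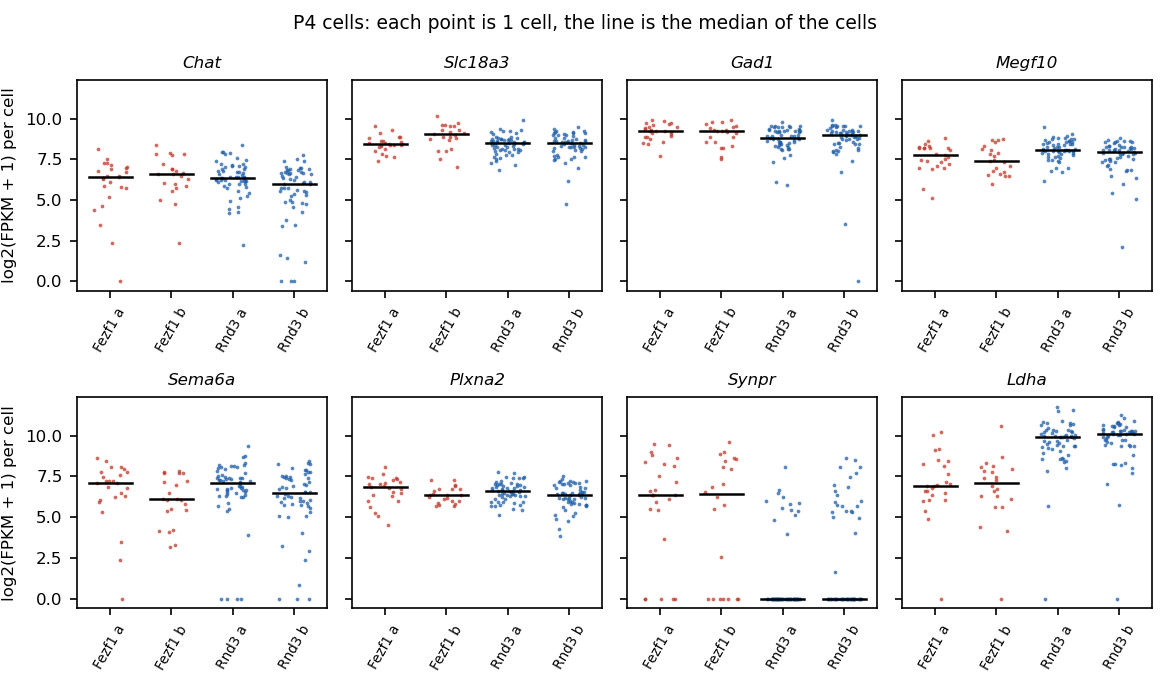
Level of 8 genes in every Fezf1 and Rnd3 cell at P4 as log2(FPKM + 1), by group and set, with a line at the median of the cells. Chat, Slc18a3, Gad1, Megf10, Sema6a and Plxna2 overlap between the groups, Synpr is at 0 in most Rnd3 cells, and the set medians of Ldha are 966.4 and 1114 FPKM in Rnd3 cells and 118.6 and 136.7 FPKM in Fezf1 cells.

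Adhesion and guidance genes were called on both sides, but some families had calls on 1 side only and others had none. Each family count here and below is to be set against the shares over all tested genes. These were 1.58% called higher in Fezf1 cells and 1.26% called higher in Rnd3 cells. Of 8 teneurins, latrophilins and FLRT proteins tested, Tenm3 was higher in Rnd3 cells and Tenm4 in Fezf1 cells. Tenm4 was present in 23 of 47 Fezf1 cells and 12.4% of Rnd3 cells, with means of 17.2 and 42.1 FPKM against 2.52 and 4.34 FPKM. Tenm4 thus separated the groups less sharply than Tenm3, which 99.1% of Rnd3 cells and 2.13% of Fezf1 cells had. At P1 Tenm4 leaned to the Rnd3 cells, with log2 ratios of -0.40 and -0.90 in sets a and b. At P8 it was not called (1.51 and 0.43), and at P11 it did not pass the filter. Of 29 immunoglobulin adhesion genes tested, 3 were higher in Fezf1 cells (Cntn5, L1cam and Ncam1) and 3 in Rnd3 cells (Igsf21, Chl1 and Nfasc). L1cam, which guides axon growth, was present in 26 of 47 Fezf1 cells and 7.96% of Rnd3 cells, whereas its relative Chl1 was absent from the Fezf1 cells. The median log2 ratio of these 29 genes was 0.24, against 0.11 over all genes.

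Of 11 cadherins tested, Cdh11 was higher in Fezf1 cells (means of 18.3 and 18.03 FPKM against 5.48 and 5.27 FPKM) and Cdh12 in Rnd3 cells (6.01 and 3.88 FPKM against 0.674 and 1.17 FPKM). Of 21 neurexins, contactin-associated proteins and leucine-rich synaptic proteins, 3 were called and all were higher in Fezf1 cells, against 1.58% of all tested genes. They were Nlgn1, a neuroligin, present in 31 of 47 Fezf1 cells and 23.9% of Rnd3 cells, Cntnap4, present in 14 and 3 cells, and Lrrtm1, a postsynaptic partner of neurexins, with means of 94.5 and 114.5 FPKM against 41.8 and 54.6 FPKM.

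Among 10 semaphorins tested, the secreted Sema3e and the membrane-anchored Sema7a were higher in Rnd3 cells, against 1.26% of all tested genes. Sema3e was listed at 0 in all Fezf1 cells and present in 21 of 57 and 9 of 56 Rnd3 cells of sets a and b, at means of 7.31 and 1.88 FPKM. Sema7a was present in 9 of 47 Fezf1 cells and 42.5% of Rnd3 cells. None of 5 plexins and neuropilins was called. Ephb1 was the only called gene among 15 ephrins and Eph receptors. None of 5 slits, netrins and their receptors was called, but the secreted repellent Slit2, named here after its values were seen, missed by little. Its means were 152.3 and 70.1 FPKM in Fezf1 cells against 22.2 and 35.7 FPKM in Rnd3 cells, and its log2 ratios were 2.73 in set a and 0.95 in set b.

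Of 47 clustered protocadherins tested, 1 was called (Pcdhgb4), against 1.58% and 1.26% of all tested genes in the 2 directions. It was present in 2 of 47 Fezf1 cells and 19 Rnd3 cells. Genes of this cluster share their last exons, so counts could be split among them and this value is uncertain. None of 6 non-clustered protocadherins was called, and the most abundant, Pcdh9, had log2 ratios of 0.65 and 0.60.

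Transcription factors were also called on both sides, where 1.58% of all tested genes were called higher in Fezf1 cells and 1.26% in Rnd3 cells. Of 26 retinal transcription factors tested, Zfhx4 was higher in Fezf1 cells and Zfhx3, Prox1 and Bcl11a in Rnd3 cells. The zinc finger homeobox relatives Zfhx3 and Zfhx4 lay on opposite sides. Zfhx3 was present in 57 of 57 and 51 of 56 Rnd3 cells of sets a and b (95.6%, interval 89.98 to 98.5%) and in 3 of 25 and 4 of 22 Fezf1 cells (14.9%, interval 6.2 to 28.3%), at means of only 10.7 and 5.34 FPKM in Rnd3 cells and 0.157 and 0.382 FPKM in Fezf1 cells. Zfhx4 was present in 42 of 47 Fezf1 cells (89.4%, interval 76.9 to 96.5%) and in 21 of 57 and 18 of 56 Rnd3 cells (34.5%, interval 25.8 to 44.04%), at means of 33.1 and 27.4 FPKM against 4.41 and 4.71 FPKM. Bcl11a, a zinc finger repressor, was present in 11 of 47 Fezf1 cells and 60.2% of Rnd3 cells.

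Among receptors and channels, calls fell in the glutamate receptors (3 of 12 tested genes) and the potassium channels (3 of 21), where 1.58% of all tested genes were called higher in Fezf1 cells and 1.26% in Rnd3 cells. None of 7 GABA-A and glycine receptor genes, of 4 acetylcholine and purine receptor genes or of 17 sodium and calcium channel genes was called, and at these shares over all genes such short lists can hold no call. Of the glutamate receptor genes, the kainate receptor subunit Grik2 and the metabotropic Grm7 were higher in Rnd3 cells, and the kainate subunit Grik5 was higher in Fezf1 cells. Grik2 had means of 94.9 and 67.9 FPKM in Rnd3 cells and 31.7 and 23.3 FPKM in Fezf1 cells. Of the potassium channel genes, Kcnc2 and Kcnc4, which code for Kv3 channels of fast-spiking neurons, were higher in Rnd3 cells and the auxiliary subunit Kcnab1 in Fezf1 cells. Kcnc2 was present in 33 of 57 and 22 of 56 Rnd3 cells of sets a and b and 4 of 47 Fezf1 cells.

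The opioid-family peptide genes took opposite sides. Pdyn, the precursor of dynorphins, was present in 27 of 47 Fezf1 cells and 13 Rnd3 cells, with means of 95.8 and 71.1 FPKM against 5.51 and 17.4 FPKM. Pnoc, the precursor of nociceptin, was present in 44 of 47 Fezf1 cells and in every Rnd3 cell and was abundant in both groups, with means of 280 and 276.02 FPKM in Fezf1 cells and 691.5 and 744.1 FPKM in Rnd3 cells. The means over all cells lay 2.58-fold apart, and 59.3% of Rnd3 cells exceeded the highest Fezf1 cell. Th, which makes the dopamine precursor and marks another amacrine type, was present in 19 of 47 Fezf1 cells and 20 Rnd3 cells. The summed level of the 5 markers of other amacrine cells had a median of 0 FPKM in both groups, with a highest cell of 665.9 FPKM among Fezf1 cells and 323.9 FPKM among Rnd3 cells, and Slc17a8 and Prdm8 had no fragment in either. Nefm was the only ganglion cell marker that was called, present in 8 and 4 cells, at a summed level of the 7 ganglion markers of at most 50.1 FPKM in a Fezf1 cell and 20.0 FPKM in a Rnd3 cell. The part of other cells' RNA in the Th and Nefm differences was not tested. Abat, which breaks down GABA, was the only called gene of 8 for the transmitters' synthesis, transport and breakdown, at 3.56 and 3.76 FPKM in Fezf1 cells and 8.19 and 14.5 FPKM in Rnd3 cells.

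None of 8 immediate early and heat shock genes was called. Fos, an immediate early gene that dissociation can induce, had means of 108.1 and 83.6 FPKM in Fezf1 cells against 203.02 and 161.8 FPKM in Rnd3 cells, with log2 ratios of -0.90 and -0.94. The share of fragments from mitochondrial genes was alike, with medians of 2.11% and 2.18%. Only mt-Atp8 was called among 12 mitochondrial genes, present in 2 Fezf1 cells and 14 Rnd3 cells, and it overlaps mt-Atp6, so its value is uncertain.

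Fezf1 encodes a DNA-binding protein, so the RefSeq promoters (250 bases before to 50 after each gene start, GRCm38.p6) of the called genes were searched for AGAGCAAC, the core of a motif described for Fezf proteins, on both strands. It stood in 330 of 32851 promoters (1.00%) and in 2 promoters (0.727%) of those that were matched by symbol to 200 of the 290 called genes. Both belong to genes higher in Rnd3 cells, and they are shown to let the matches be read. Egfem1 has it in the complementary strand just after a gene start (chr3:29081807-29081836, plus strand), and Gpr22, an orphan receptor present in 1 Fezf1 cell and 21 Rnd3 cells, has it before its gene start (chr12:31714051-31714080, minus strand). Capitals mark the motif.
Egfem1: ttggggggctagcaactggagGTTGCTCTg
Gpr22: tattctatttaAGAGCAACaaacaaccagt
The called genes held the motif no more often than promoters at large, and nothing about Fezf1 binding follows from a match or from its absence in these windows.

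The same division of cells at P1, P8 and P11 used other animals and other cells. At P1 there were 46 Fezf1 and 70 Rnd3 cells, at P8 84 and 66, and at P11 24 and 97. By the same rule, 1.86% of 9241 tested genes were higher in Fezf1 cells and 2.34% in Rnd3 cells at P1. These shares were 1.81% and 0.881% of 10665 genes at P8, and 1.41% and 5.57% of 9549 genes at P11. Of the genes called higher in Fezf1 cells at P4, 33 were called the same way at P1, 43 at P8 and 20 at P11, which is 25.98%, 29.5% and 17.1% of those that passed the filter there. Of the genes called higher in Rnd3 cells, 19 were called the same way at P1, 26 at P8 and 29 at P11, which is 23.5%, 23.9% and 33.3% of those that passed. These shares all stood above the shares called over all genes of the same age. A gene could pass the filter there through 1 group alone, and genes of like level and sparsity were not compared, so this is a description only. Calls the opposite way numbered 4, 1 and 3 for the first group and 1, 0 and 2 for the second.

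Some leading genes kept their difference at all 4 ages, while others changed with age or did not pass the filter at every age. Tenm3 was present in 81.4%, 99.1%, 96.97% and 98.97% of Rnd3 cells and in 4.35%, 2.13%, 4.76% and 4.17% of Fezf1 cells at P1, P4, P8 and P11. Igsf21 and Gpr26 were called at all 4 ages too, and Gpr26 was listed at 0 in every Fezf1 cell of every age. Besides these 3, Zfhx3, Trhde, Ldha, Nav2 and Camk2d were higher in Rnd3 cells at all 4 ages. On the other side 8 genes were higher in Fezf1 cells at all 4 ages, namely Cntn5, RP23-24C14.1, Pdyn, Nptx1, Trpc4, Emilin1, Fam84a and Prr5.

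Other leading genes changed with age. Sox9 was present in 34.8%, 68.1%, 90.5% and 83.3% of Fezf1 cells from P1 to P11 and in at most 10.6% of Rnd3 cells, but at P1 its sets went opposite ways, with log2 ratios of -0.99 and 4.25. Egfem1 had no one direction at P1 (-2.50 and 1.67), was sparse at P4, and was present in 84.8% of Rnd3 cells at P8 and 69.1% at P11 against 4.76% and 4.17% of Fezf1 cells. Pappa2 was nearly absent at P1, was present in 27.7% of Fezf1 cells and 1.77% of Rnd3 cells at P4, and was present in both groups at P8 (98.8% and 84.8%), with means of 180 and 49.2 FPKM. Gap43 and Ephb1 were too sparse to be tested at P8 and P11. Prox1 passed the filter at P4 only, and its share of Rnd3 cells was 15.7%, 33.6%, 7.58% and 3.09% over the 4 ages. Vwc2l and Efemp2 also passed at P4 only, yet both were listed at 0 in Fezf1 cells at P1 too. Their P1 log2 ratios in sets a and b were -3.73 and -3.32 for Vwc2l and -3.22 and -3.47 for Efemp2. Failing the filter at an age is thus not the lack of a difference there. Synpr was called at P4 and P8, and at P11 its means were 714.3 and 576.6 FPKM with log2 ratios of -0.02 and 0.72. Each age had cells and sets of its own, so an age and its preparation cannot be told apart.

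**Figure D5:**
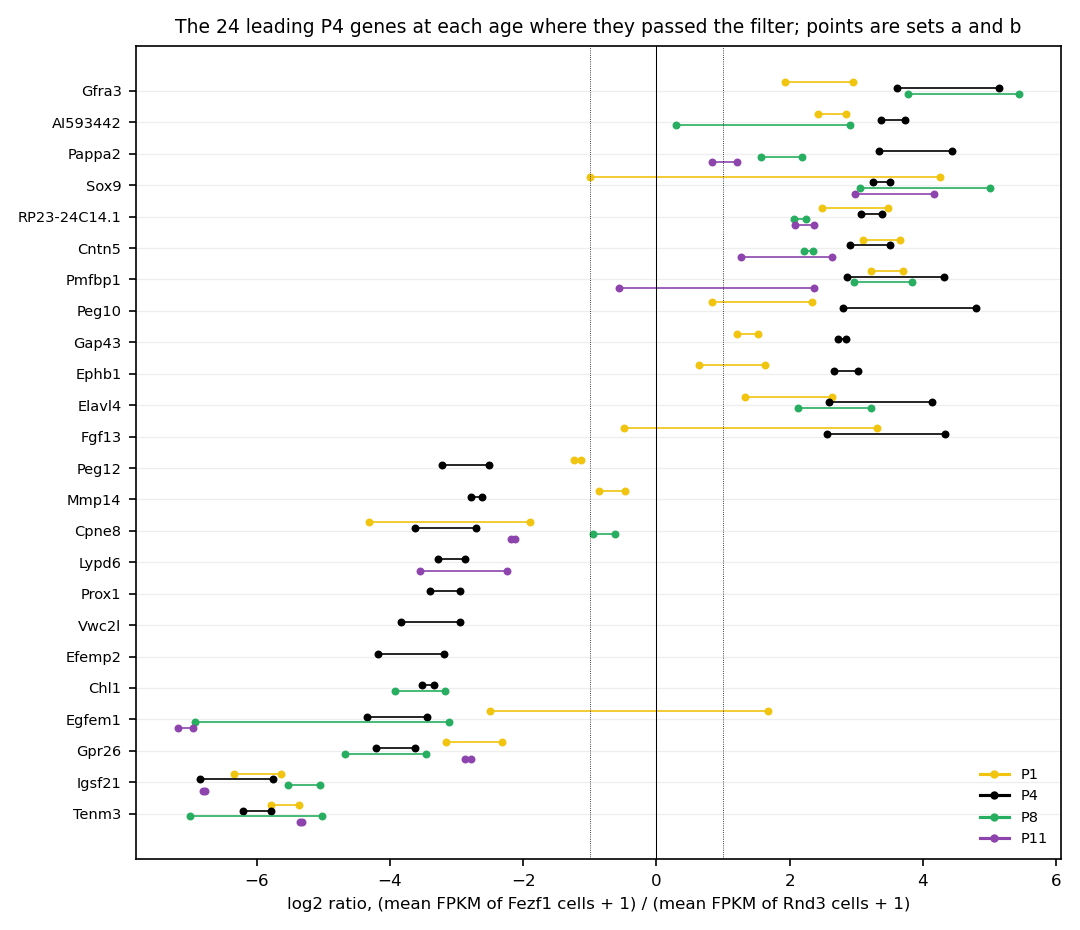
Log2 ratio of the 24 leading P4 genes at P1, P4, P8 and P11, each drawn as a line between sets a and b at the ages where the gene passed the filter on low values, with dotted lines at 2-fold. Tenm3, Igsf21 and Gpr26 stay under -2 in both sets at all 4 ages, and Cntn5 stays above 1. Prox1, Vwc2l and Efemp2 have a P4 line only because they did not pass the filter at the other ages, which does not mean that they had no difference there.

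The cells with both or neither gene went with the Fezf1 side at the other ages too, by the same 24 genes chosen at P4 and with the same limit from Cntn5 and RP23-24C14.1. At P1, 13 of 14 cells with both genes and 29 of 29 cells with neither had more Fezf1-side than Rnd3-side genes. With neither gene, this held for 21 of 21 cells at P8 and 28 of 28 at P11, and P8 had a single cell with both, which also did. At P1, 11 of the 70 Rnd3 cells had more Fezf1-side genes, against 2 Rnd3 cells at P4, 2 of 66 at P8 and 5 of 97 at P11.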

How the data were processed

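Single cells were sorted and sequenced by Smart-seq2 by the authors, and each column of the deposited tables is 1 cell (855 columns, none without a sample, 29548 genes). Per the labels' processing notes the tools were HISAT2 2.1.0, SAMtools 1.3.1, Cuffnorm and Cufflinks 2.2.1 with GRCm38.p6 (mm10), and which setting each had is not given in the sources used here. The authors deposited FPKM values, which were used as they are. The authors also deposited a normalized fragment signal per gene, and the scale ratio that the authors deposited for each cell turns it back into fragments. After multiplication 95.9% of the values above 0 at P4 lay within 0.01 of a whole number, against 7.14% before, and a gene was present in a cell from 0.995 fragments.

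Groups, lists and leading genes were chosen with earlier results of these data known. Genes entered with a mean of at least 1 FPKM over all P4 cells and a fragment in at least 10% of them, leaving out Fezf1 and Rnd3, and the pseudocount was 1. The text names the 12 called genes per side with the largest ratio in the set where it is smaller (predicted genes not ranked), up to 4 called genes of each of 33 lists, or its 2 most abundant genes where none was called, and 9 further genes of starburst cells, most of them from the study. Genes named after their values were seen are said to be so, or were named for a count they make up. As cells are not replicates, the labels tie no cell to an animal and the groups were chosen on the readout, no p-value was computed. Shares have exact Clopper-Pearson 95% intervals, and a share of 0 allows 3 cells. Gene positions are from GENCODE vM21. The calling step was run on values shuffled over the cells, with planted changes well past the 2-fold limit. Changes near that limit were not checked. Python 3.11.15, numpy 2.4.6, pandas 2.3.3 and scipy 1.17.1 were used. There were 13 alternatives. The ON and OFF title labels, the P16 cells and the isoform, coding and start-site tables were not used here. Some items are not reported here.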

Additional observations from a re-analysis of the deposited data

Results flagged for a closer look

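Pcdhgb4, a clustered protocadherin, was higher in Rnd3 cells at P4 and in Fezf1 cells at P11, in both sets of either age. Its log2 ratio over all cells was -1.89 at P4 and 1.73 at P11. At P4 it was present in 4.26% of Fezf1 cells and 16.8% of Rnd3 cells, and at P11 in 33.3% and 5.15%. The difference between the ages was not tested, and reads of this cluster's shared exons may be split among its genes.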

How the results depend on the processing

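The calls at P4 moved with the filter, the sets and the measure. As calls per 100 of the 10200 genes tested, set against 1.58 higher in Fezf1 cells and 1.26 higher in Rnd3 cells, leaving out the filter on low values gave 2.69 and 2.47, and a mean of at least 10 FPKM gave 0.833 and 0.48. Set a alone gave 6.26 and 5.03, set b alone 6.88 and 6.16, and both sets pooled 3.59 and 2.57. A share of cells higher by 25 percentage points in both sets gave 0.49 and 0.255. The Rnd3 side alone moved past 1.5 times with the mean of log2(FPKM + 1) (0.814), with fragments scaled to the cell's total (1.98) and with cells thinned to 150000 fragments (2.05), and the cause was not tested. Of the calls at P4, 17.9%, 23.8% and 16.9% were made the same way at P1, P8 and P11. By shares these were 36.8% at P1 and 27.6% at P11, and all other alternatives kept these 3 shares within 1.5 times.

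All 24 leading genes were called under every alternative but the mean of at least 10 FPKM (8 and 5 of 12), the mean of log2(FPKM + 1) (10 and 11) and the shares (8 and 6). Either set alone, leaving out the filter and a lower pseudocount keep every call and its direction by their definition, and pooling the sets all but does. These alternatives have no weight here. The 53 called genes that the rule names kept their direction in every alternative that gave them a value. No paired analysis was possible because the cells carry no number that pairs them across groups and the result comes from no test. With 47 Fezf1 cells, a gene in few cells rests on few fragments, and a share of 0 cannot tell a low level from none.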

Other observations

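Genes of glycolysis and lactate handling stood higher in Rnd3 cells at P4. This list of 21 genes was put together after some of its values had been seen, so its counts are a description only. Of 19 tested, 7 were at least 2-fold higher in Rnd3 cells in both sets and none in Fezf1 cells, and their median log2 ratio was -0.75 against 0.11 over all genes. Ldha, the lactate dehydrogenase subunit that favours lactate formation, had means of 251.8 and 214.6 FPKM in Fezf1 cells and 1028 and 1060 FPKM in Rnd3 cells, 4.45-fold apart, with medians of 118.6 and 136.7 against 966 and 1114 FPKM. Ldhb, the subunit that favours pyruvate, hardly differed (log2 ratios of -0.04 and -0.08). Slc16a3, a lactate exporter, was present in 5 of 47 Fezf1 cells and 45.1% of Rnd3 cells, and Slc2a1, a glucose transporter, in 9 of 47 and 43.4%. Tpi1, Pgam1 and Pfkl were between 2.08- and 2.27-fold higher in Rnd3 cells, and Aldoa (-1.15 and -0.94) and Pgk1 (-0.96 over all cells) lay at the 2-fold limit. Gapdh was called as well, but its many pseudogene copies make its value uncertain. Hk1, Pfkm and Eno2 leaned the other way, with log2 ratios of 0.70, 0.88 and 0.62 over all cells. The number of the 19 genes lower in Fezf1 cells in both sets was 14 as reported, and also 14 with fragments scaled to the cell's total and with FPKM scaled to the same sum, but it was 11 with the mean of log2(FPKM + 1), where 1 gene was called higher in Fezf1 cells.

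At the other ages Ldha kept its difference, with log2 ratios over all cells of -1.53 at P1, -1.91 at P8 and -1.53 at P11. Tpi1 had -0.57, -1.10 and -0.58, and Pgam1 had -0.46, -0.82 and -0.75, so these were smaller than at P4.

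Dusp6, a phosphatase that growth factor signalling induces, was named after its values were seen. It was present in 20 of 47 Fezf1 cells and 89.4% of Rnd3 cells, with means of 24.4 and 18.1 FPKM against 95.1 and 121.5 FPKM. Nfasc, an adhesion molecule of the axon initial segment that was also named after its values were seen, was present in 13 of 47 Fezf1 cells and 89.4% of Rnd3 cells.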
